A study of Ovis aries with 18 samples.

Results

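The SNPs described here are those that the annotation of the study placed outside the coding sequence and the untranslated regions, in 3 classes: intron variants, intron variants of a noncoding transcript, and variants downstream of a gene. They were chosen by this annotated consequence alone, on the autosomes, whatever their allele shares. The 3 classes held 922 of the 24355 SNPs in the table, that is 69 intron variants in 22 genes, 434 noncoding-transcript intron variants in 109 genes and 419 downstream variants in 135 genes. A further 5 SNPs with these consequences lay on chromosome X and were left out. Together the members lay in 261 genes, and 5 genes held members of more than 1 class.

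Perirenal adipose tissue (PRAT) was taken from 18 singleton Merino fetuses, 16 female and 2 male, at 132 days of gestation, where term is 150 days. They shared their sire but had unrelated dams, were wild type and untreated, and the dams were fed to 100% of their maintenance energy requirement. RNA-Seq reads of either allele, reference or alternate, were counted at each SNP in each fetus, and the study asked where the alleles of a heterozygous animal were expressed unequally, which is called allelic imbalance (AI). All fetuses form a single group, so the comparisons below are between SNP classes within each fetus, or between the alleles of a SNP.

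Perirenal fat of the fetal lamb is largely brown fat, whose adipocytes burn lipid in mitochondria to produce heat at birth. Messenger RNA is spliced soon after it is made, so reads within an intron come from transcripts not yet spliced, from introns that are retained, or from exons that an annotation lacks. A downstream variant lies past the end of a gene in the annotation that gave the consequences. According to the study, SNPs were kept within genes of another annotation version, and small differences between the versions account for this class. The counts carry no strand, so reads of overlapping or antisense genes cannot be told apart.

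The marker genes of the tissue were read through their own SNPs, in bulk tissue where fewer cells of a type and less RNA per cell cannot be told apart. UCP1, the uncoupling protein that marks brown adipocytes, had 5 SNPs with a median of 11840 reads per fetus, and the median over these SNPs lay between 7057 and 20809 reads in the 18 fetuses. The brown fat genes CIDEA, DIO2 and PPARGC1A had far fewer, with medians of 476.6, 157.4 and 116.2 reads. ADIPOQ, the adipocyte hormone adiponectin, had 13 SNPs with a median of 13411 reads. Genes of other cells were also read, with a median of 1534 reads at the 5 SNPs of COL1A1 and 937.7 at the 9 SNPs of DCN, both made by stromal cells, but of 40.3 at the 15 SNPs of PDGFRA, another stromal gene. The endothelial genes CDH5 and VWF had medians of 347.5 and 253.1 reads. STAR, of steroid-producing cells, had 46.4. CD14, of leukocytes, had a single SNP with 31.6 reads. No SNP of the table lay in the fat genes PRDM16, FABP4 and LPL, the endothelial gene PECAM1 or the steroid-cell genes CYP17A1 and CYP11A1. There was also none in PTPRC, CD68, UMOD, ACTA1 or MYH7, so all these genes were not read.

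The reads at all SNPs summed to between 2970824 and 5334585 per fetus with a median of 4486796, and those at the members to between 78585 and 139710 with a median of 116277. A fetus was called heterozygous at 417 to 545 of the 922 members, with a median of 477. Over the 153 pairs of fetuses, genotype sharing ranged from 43.6% to 63.5%, so no pair of libraries had the same genotypes. Genotypes were called from the same RNA reads as the counts, and the sequencing batch of each sample is not given.

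At intron variants the median number of reads in a fetus ranged from 64 to 104 with a median over fetuses of 87. At noncoding-transcript intron variants it ranged from 42 to 81.5 with a median of 64.8, and at downstream variants from 54 to 94 with a median of 79. At synonymous SNPs, the coding class used for comparison, the range was 45 to 83 and the median 67. Intron and downstream variants were thus read more deeply than synonymous SNPs in every fetus, whereas the noncoding-transcript class overlapped with them. In the tests between classes, here and below, the fetuses are the replicates and the SNPs are a fixed set. Their P-values measure the spread between fetuses, not between SNPs or genes, and do not extend to other SNPs of a class. The difference in log2 depth from synonymous SNPs was 0.39 ± 0.08 (SD, n = 18) for intron variants and 0.23 ± 0.05 (SD, n = 18) for downstream variants, both positive in 18 of 18 fetuses (two-sided sign-flip permutation test, adjusted P = 6.4e-05 for each over the 16 comparisons made). For noncoding-transcript intron variants it was -0.03 ± 0.06 (SD, n = 18), which did not pass (permutation test, adjusted P = 0.0928). Downstream variants were also deeper than 3' UTR SNPs, by 0.07 ± 0.04 (SD, n = 18; permutation test, adjusted P = 6.4e-05). With means over SNPs in place of medians the sign turned for downstream variants, to -0.62 against synonymous and -0.60 against 3' UTR SNPs, and the difference of noncoding-transcript intron variants passed at -0.82 (permutation test, adjusted P = 4.57e-05 for each). The latter also passed without the 3 genes with most SNPs of each class, at -0.06 (permutation test, adjusted P = 0.00216), and without replicate 12, at -0.04 (permutation test, adjusted P = 0.00828). Without SNPs within 5 bp of another, the sign turned for this class, to 0.04, which did not pass (permutation test, adjusted P = 0.0729). The table holds a few synonymous and 3' UTR SNPs with up to 19024 and 17019 reads per fetus, where the deepest downstream variant had 811.1.

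The member with the most reads per fetus was in UQCRC1, a core subunit of respiratory complex III, which had a noncoding-transcript intron variant at position 51224434 of chromosome 19 (Oar v3.1, as all positions here) with 2023 to 4191 reads per heterozygous fetus and a median of 2774. IDH3A, the catalytic subunit of mitochondrial isocitrate dehydrogenase, had intron variants at positions 29610784 and 29610815 of chromosome 18 with medians of 2422 and 2009 reads. In the downstream class the most reads over heterozygous fetuses were at 3 SNPs of DDX17, an RNA helicase that acts in splicing, at positions 214150708, 214150734 and 214151205 of chromosome 3. These had medians of 796, 836 and 667 reads. All these genes are protein coding.

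In the same genes, members could be set beside the coding and UTR SNPs. This was possible for 18 of the 22 genes with intron variants, 32 of the 109 with noncoding-transcript intron variants and 101 of the 135 with downstream variants. The median over genes of the mean log2 ratio of member to coding or UTR reads was -0.29 for intron variants, 0.09 for noncoding-transcript intron variants and -0.03 for downstream variants. Intron variants were lower in 14 of 18 genes. Single genes differed far more than these medians. ETFDH, the enzyme that passes electrons of fatty acid oxidation to ubiquinone, had a mean of 90.5 reads at its 5 intron variants and 115 at its 9 downstream variants against 1709 at its 11 coding or UTR SNPs, a log2 ratio of -4.27 ± 0.29 (SD, n = 18) and -3.91 ± 0.21 (SD, n = 18). The intron variants of IDH3A averaged 874 reads against 1821, a log2 ratio of -1.06 ± 0.09 (SD, n = 18). EEF1G, a translation elongation factor, stood lowest with 29.8 reads at its single noncoding-transcript intron variant against 4552, and was named after its values were seen. In contrast, the 2 downstream variants of HIPK3, a nuclear kinase, had 136 reads against 40.3, a log2 ratio of 1.78 ± 0.40 (SD, n = 18), and the ratio was above 0 in each of the 18 fetuses. The largest ratio was in PIGU, 3.45 ± 0.34 (SD, n = 18) at a single downstream variant, also named after its values were seen. The ratios are a description of these genes, since the position of a SNP along its transcript was not used.

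AI was tested on the reads summed over heterozygous fetuses with the Poisson likelihood ratio test that the study describes, its statistic taken as 2 times the log likelihood ratio. Of all tested SNPs, 45.0% had an unadjusted P-value under 0.05. The members passed at 36 of 69 intron variants (52.2%), 190 of 433 noncoding-transcript intron variants (43.9%) and 199 of 416 downstream variants (47.8%). The Wilson 95% intervals ran from 40.6% to 63.5%, from 39.3% to 48.6% and from 43.1% to 52.6%. Each held the share of the whole table. They cover counting error only and take each SNP as separate, although many SNPs lay in the same gene. A moderated quasi-binomial F test, which takes the fetuses as replicates and adjusts over all SNPs, called 24.5% of the table at an adjusted P-value under 0.05, and 18 intron, 94 noncoding-transcript intron and 105 downstream variants (26.1%, 21.7% and 25.2%). This adjusted form was added for the counts after seeing the data, and the planned unadjusted form gave 24, 136 and 147 calls (34.8%, 31.4% and 35.3%) where it called 34.4% of the table. The members' counts are therefore near the background under both tests. In all 3 classes together, the 425 SNPs with AI lay in 183 genes, and 307 of them (72.2%) had more reference than alternate reads, beside 8206 of 10901 (75.3%) in the whole table. With the median reference share of all SNPs as the null, the reference share was above 0.5 at 41.2%, 54.5% and 48.9% of the SNPs then called in the 3 classes.

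The median reference share was 0.519 for intron variants, 0.520 for noncoding-transcript intron variants and 0.517 for downstream variants, beside 0.519 over all tested SNPs. The lowest and highest summed shares were 0.386 and 0.879 among intron variants, the latter from a single heterozygous fetus, 0.136 and 0.916 among noncoding-transcript intron variants and 0.0979 and 0.915 among downstream variants. Of the 217 members called by the quasi-binomial test, 108 were more than 0.1 from an equal share and 38 more than 0.2, beside 2851 and 1179 of the 5948 SNPs called in the whole table. Among the genes with coding or UTR SNPs too, 7, 17 and 48 had a member called by this test in the 3 classes. A coding or UTR SNP was also called in 7, 11 and 24 of these genes. An unequal share at a member is thus a value of that SNP, not of its whole gene.

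Within each fetus, the median reference share over heterozygous SNPs with at least 20 reads was compared between classes. It lay between 0.483 and 0.542 for intron variants, between 0.511 and 0.535 for noncoding-transcript intron variants and between 0.5 and 0.529 for downstream variants, and between 0.517 and 0.521 for synonymous SNPs. The mean difference from synonymous SNPs was -0.000153 ± 0.0172 (SD, n = 18), 0.00293 ± 0.00684 (SD, n = 18) and -0.00281 ± 0.00815 (SD, n = 18) for the 3 classes, none past the threshold (sign-flip permutation test, adjusted P = 0.97, 0.139 and 0.237). Without the 3 genes with most SNPs of each class, an alternative chosen after seeing the data, the noncoding-transcript difference of 0.00428 and the downstream difference of -0.00581 passed (permutation test, adjusted P = 0.0266 and 0.0201). Downstream variants stood -0.00873 ± 0.00849 (SD, n = 18) from 3' UTR SNPs, lower in 16 of 18 fetuses (permutation test, adjusted P = 0.000507). This difference was lost without the SNPs that had another SNP within 5 bp, where it was 0.00158 (permutation test, adjusted P = 0.622).

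The distance of the share from 0.5 was compared at an equal depth of 20 reads drawn from each SNP and fetus. The mean distance over the class ranged from 0.102 to 0.129 between fetuses for intron variants with a median of 0.117, from 0.109 to 0.123 for noncoding-transcript intron variants with a median of 0.115, and from 0.105 to 0.127 for downstream variants with a median of 0.116. For synonymous SNPs it ranged from 0.106 to 0.111. The members lay farther from equality than synonymous SNPs in 16, 17 and 17 of 18 fetuses, counted for the 3 classes in turn. The differences were 0.00677 ± 0.00673, 0.00648 ± 0.00363 and 0.0083 ± 0.00547 (SD, n = 18; permutation test, adjusted P = 0.00186, 6.4e-05 and 6.4e-05), and downstream variants stood -0.00637 ± 0.00629 (SD, n = 18) from 3' UTR SNPs (permutation test, adjusted P = 0.00183). With medians over SNPs the 3 differences from synonymous SNPs fell to 0.00288, 0.0012 and 0.00241, and without the 3 genes with most SNPs of each class they were 0.0161, 0.0113 and 0.00948, all past the threshold. With medians the difference from 3' UTR SNPs was -0.000984 and did not pass (permutation test, adjusted P = 0.151). Without SNPs within 5 bp of another the 3 differences from synonymous SNPs were -0.00347, 0.00046 and 0.00125 and none passed (permutation test, adjusted P = 0.0755, 0.653 and 0.334). Neighbouring SNPs made up 13%, 13.4% and 13.1% of the 3 classes, against 4.74% of synonymous and 16.9% of 3' UTR SNPs (the cause was not tested). Without SNPs heterozygous in 15 or more fetuses the differences were -0.00223, -0.00179 and 0.00669 for the 3 classes (permutation test, adjusted P = 0.285, 0.0493 and 8e-05).

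The percentage of SNPs called heterozygous in a fetus ranged from 33.3% to 63.8% for intron variants, from 41.2% to 61.5% for noncoding-transcript intron variants and from 45.4% to 58.5% for downstream variants. None of the classes differed from synonymous SNPs past the threshold, with mean differences of -1.26, 1.56 and -0.434 percentage points (permutation test, adjusted P = 0.633, 0.3 and 0.664). SNPs with 15 or more heterozygous fetuses made up 5.8% of intron variants, 10.8% of noncoding-transcript intron variants and 7.64% of downstream variants, beside 6.55% of synonymous SNPs and 9.89% of the whole table. Of such members 80.9% of the noncoding-transcript class and 81.3% of the downstream class had AI by the likelihood ratio test, compared with 39.4% and 45.1% of the other members. For synonymous SNPs these shares were 62.2% and 39.9%, and for 3' UTR SNPs 68.5% and 48.3%.

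Among intron variants, IDH3A and LANCL1, a glutathione-binding protein, had 10 SNPs each and LGALS8, a lectin that binds galactosides, had 6. The 10 SNPs of IDH3A lay within 1005 bp of chromosome 18, and 9 had AI in the likelihood ratio test and 7 in the quasi-binomial test, all 7 with the reference allele higher. At position 29611008 the share in the 7 heterozygous fetuses ranged from 0.543 to 0.614 with a median of 0.589, and the mean was 0.586 ± 0.0241 (SD, n = 7; moderated quasi-binomial F test of limma dispersions, adjusted P = 1.15e-06). At positions 29611123 and 29611628 the medians were 0.572 and 0.551. The reference allele was higher in every heterozygous fetus at these 3 SNPs, by a modest amount. They were picked for large departures with the same higher allele, so this unanimity and the P-value are a description. At the 2 deepest SNPs of the gene the departures were smaller, with a range of 0.510 to 0.540 at position 29610784 and of 0.464 to 0.509 at position 29610815, the latter with fetuses on both sides of equality. The 2 coding or UTR SNPs of IDH3A had summed shares of 0.497 and 0.518, and 1 of them was called by the quasi-binomial test. LANCL1 had 1 SNP called by the quasi-binomial test, at position 211025315 of chromosome 2, where the shares ranged from 0.382 to 0.693. LGALS8 likewise had 1, at position 9229308 of chromosome 25, where the alternate allele was higher and the median share was 0.409 at 20 to 39 reads.

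SNPs with the largest departures were picked for their shares, so their values here and below are a description. Of the intron variants with no other SNP within 5 bp and the same higher allele in 5 or more fetuses, the largest departure was in PHF1, a chromatin protein of the Polycomb system. At position 7694137 of chromosome 20 the reference share in 15 heterozygous fetuses ranged from 0.543 to 0.732 with a median of 0.680, and the mean was 0.669 ± 0.0502 (SD, n = 15; adjusted P = 9.97e-10). Every heterozygous fetus thus had more reads of the reference allele, and the 3 homozygous fetuses had 0% of their reads from the other allele. The 5 coding or UTR SNPs of PHF1 had summed shares from 0.343 to 0.699, and 4 of them were called by the quasi-binomial test. ALDH6A1, an enzyme of valine breakdown, had a share between 0.482 and 0.606 at position 82335544 of chromosome 7, above 0.5 in 12 of 13 fetuses (adjusted P = 0.000347). In ETFDH the alternate allele was higher at position 40061044 of chromosome 17, where the median was 0.383 in 5 fetuses.

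PRKACA, the catalytic subunit of the protein kinase A that carries the adrenergic signal to lipolysis and UCP1, had 5 intron variants within 12 bp of chromosome 5. At position 9711290 all 18 fetuses were called heterozygous, with shares from 0.118 to 0.632 and a median of 0.391. They fell into 9 fetuses at 0.118 to 0.245 and 9 at 0.538 to 0.632, with none between. The dispersion between fetuses, where 1 is counting error alone, was 53.2, the largest of the intron class, and the summed share did not pass the quasi-binomial test (adjusted P = 0.175). At the neighbouring position 9711291 the 8 heterozygous fetuses had shares of 0.677 to 0.787. At position 9711280, 8 bp from the nearest other SNP, 5 fetuses had 0.554 to 0.659, but the 13 fetuses called homozygous there had 35.6% of their reads from the other allele. The calls and counts at these adjoining SNPs come from the same reads.

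Noncoding-transcript intron variants were most numerous in 3 genes, with 49 SNPs in PLEC, which encodes the cytoskeletal linker plectin, 28 in GNA12, a G protein subunit, and 20 in HTT, which encodes huntingtin. These 3 genes held 22.4% of the class. Symbols of 97 of the 109 genes matched RefSeq, and all 97 are listed there as protein coding. PLEC had 10 SNPs with AI in the likelihood ratio test and 6 in the quasi-binomial test over 17698 bp, and the median summed share of its 49 SNPs was 0.510. GNA12 had 5 SNPs with AI by the likelihood ratio test and 0 by the quasi-binomial test, and HTT had 10 and 4. In HTT the share at position 115023912 of chromosome 6 was between 0.510 and 0.676 in 10 fetuses (adjusted P = 0.00556), while at position 115077999 the median was 0.430 over all 18 fetuses at 10 to 36 reads (adjusted P = 0.0412).

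A group of lone SNPs of this class was called heterozygous in all 18 fetuses with an unequal share in each. In PLEC at position 13841356 of chromosome 9 the share ranged from 0.678 to 0.852 with a median of 0.791 (mean 0.789 ± 0.0371, SD, n = 18; adjusted P = 3.92e-18). PYCRL, an enzyme of proline synthesis, had shares of 0.660 to 0.896 with a median of 0.781 at position 14052484 of chromosome 9. In METTL12, a mitochondrial methyltransferase, the alternate allele was the higher one at position 40391170 of chromosome 21, with shares of 0.150 to 0.294 and a median of 0.228 (mean 0.219 ± 0.0404, SD, n = 18; adjusted P = 2.92e-16). SREBF1, the transcription factor that drives lipid synthesis genes, had shares of 0.574 to 0.839 with a median of 0.732 at position 34185915 of chromosome 11. At none of these SNPs was a homozygous fetus found with which the shares could be compared, and the dispersion was between 0.698 and 1.40, near counting error. The other member of SREBF1, also heterozygous in all 18 fetuses, had a summed share of 0.497. The single coding or UTR SNP of METTL12 had a summed share of 0.431.

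SNPs heterozygous in fewer fetuses also departed from equality. COPG1, a subunit of the coat of Golgi vesicles, had shares of 0.644 to 0.758 in 8 fetuses at position 58946447 of chromosome 19 (adjusted P = 2.14e-08), and its 10 homozygous fetuses had 0% of their reads from the other allele. BRAT1, a protein of the DNA damage response, had 0.583 to 0.771 in 9 fetuses. TIMM10, a chaperone of mitochondrial protein import, had 0.629 to 0.704 in 9 fetuses with a median of 0.671 at position 77994334 of chromosome 15 (mean 0.667 ± 0.0275, SD, n = 9; adjusted P = 5.66e-10), and 0.075% of the reads of homozygous fetuses came from the other allele. SLC25A1, which exports citrate from mitochondria for lipid synthesis, had 0.556 to 0.667 in 9 fetuses at position 71799013 of chromosome 17 (adjusted P = 3.66e-08). The reference allele was higher in every heterozygous fetus at these 4 SNPs. UQCRC1, the deepest, had shares of 0.496 to 0.535 in 15 fetuses, a small departure in 1 direction in 14 of them (adjusted P = 8.13e-05). The 10 coding or UTR SNPs of COPG1 had summed shares of 0.456 to 0.534, nearer to equality than its SNP above.

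Genes of the extracellular matrix were represented by ELN, COL18A1 and COL5A1. ELN encodes elastin, the core of elastic fibres. Its SNP at position 33210385 of chromosome 24 was heterozygous in all 18 fetuses with shares of 0.844 to 0.900 and a median of 0.878 (mean 0.878 ± 0.0149, SD, n = 18; adjusted P = 1.49e-29), and the SNP 3 bp further, at position 33210388, had 0.906 to 0.923 in 9 fetuses while 7.06% of the reads of the 9 homozygous fetuses came from the other allele. At position 33224021 of the same gene the shares were 0.494 to 0.585 in 11 fetuses, so the SNPs of ELN differed widely in their share. At position 33213424 only 2 fetuses were called heterozygous, and the homozygous ones had 36.5% of their reads from the other allele. COL18A1 had shares of 0.510 to 0.707 in 17 fetuses at position 263410020 of chromosome 1 (adjusted P = 1.2e-07), and COL5A1 had 0.536 to 0.654 in 9 fetuses at position 1457199 of chromosome 3 (adjusted P = 8.18e-05).

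Some SNPs of this class showed large differences between fetuses with little departure of the sum. PNPLA2 encodes the lipase that starts the breakdown of stored triglyceride. Its SNP at position 49318958 of chromosome 21 had 976 to 2059 reads per fetus, shares of 0.391 to 0.591 with a median of 0.487, a dispersion of 17.5 and a summed share of 0.488 (adjusted P = 0.531). The reference allele was higher in 4 fetuses and the alternate allele in 9. PPP1R1B, a phosphatase inhibitor regulated by protein kinase A, had shares of 0.304 to 0.590 at position 39578615 of chromosome 11 with a dispersion of 16.2. Differences between fetuses passed the Pearson chi-square test, adjusted over all SNPs, at 15.4% of the table and at 9 intron variants, 51 noncoding-transcript intron variants and 76 downstream variants (13.2%, 11.8% and 18.3%). The null of this test is counting error alone, and the median dispersion over all SNPs was 1.41.

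Downstream variants were spread more evenly over genes, with 15 SNPs in ABR, 14 in LGALS8 and 10 in ILVBL, an enzyme of the acetolactate synthase family. These made up 9.31% of the class. In LGALS8 the reference allele was higher at all 11 SNPs with AI in the likelihood ratio test, 4 SNPs were called by the quasi-binomial test, and the shares were 0.505 to 0.671 in 15 fetuses at position 9226971 of chromosome 25 (mean 0.592 ± 0.0466, SD, n = 15; adjusted P = 1.21e-05). ABR had 4 SNPs with AI by the likelihood ratio test and 2 by the quasi-binomial test, and ILVBL had 5 and 1. At position 21480933 of chromosome 11 in ABR the shares were 0.440 to 0.709, and at position 7807136 of chromosome 5 in ILVBL they were 0.496 to 0.620.

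Among lone downstream variants with the same higher allele in 5 or more heterozygous fetuses, the largest departure was in MCAM, an adhesion molecule of vessel walls. At position 29355590 of chromosome 15 the shares in 9 fetuses ranged from 0.848 to 0.917 with a median of 0.903 (mean 0.889 ± 0.0284, SD, n = 9; adjusted P = 1.55e-13), and 4.51% of the reads of the 9 homozygous fetuses came from the other allele. At position 29355920 the shares were 0.496 to 0.640 in 11 fetuses, so these SNPs of MCAM differed in size with the reference allele higher in the sum at both. FRYL, a large scaffold protein, had shares of 0.781 to 0.923 in 8 fetuses at position 67151441 of chromosome 6 and 7.66% of other reads in its homozygous fetuses. In HIPK3 the shares were 0.644 to 0.822 in 15 fetuses at position 62169032 of chromosome 15, with 19.4% of other reads in the 3 homozygous fetuses, and in PREPL, a serine peptidase, they were 0.593 to 0.810 in 5 fetuses with 18.5% of other reads in the 13 homozygous fetuses. Reads of the other allele were nearly absent from homozygous fetuses at 2 further SNPs. SH3GLB2, a membrane-bending protein, had shares of 0.682 to 0.820 in 7 fetuses at position 7384676 of chromosome 3 with 0.165% of such reads (adjusted P = 1.01e-06), and CST7, an inhibitor of lysosomal proteases, had 0.676 to 0.793 in 9 fetuses at position 41709190 of chromosome 13 with 0.0677% (adjusted P = 4.61e-10).

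LETMD1, a mitochondrial protein needed for brown fat heat production, had 2 downstream variants called by both tests. At position 134949246 of chromosome 3 the shares in 12 fetuses ranged from 0.5 to 0.821 with a median of 0.754 at 22 to 49 reads (mean 0.731 ± 0.0891, SD, n = 12; adjusted P = 3.16e-07), and 0% of the reads of homozygous fetuses came from the other allele. At position 134948352 the range was wider, 0.357 to 0.682. IGFBP-5, which binds insulin-like growth factors, had a share of 0.915 at position 217650670 of chromosome 2, from 3 fetuses with 5.2% of other reads in the 15 homozygous ones. ETFDH had the reference allele higher at positions 40061828 and 40062007 of chromosome 17, with medians of 0.555 and 0.589 in 6 fetuses each, and the alternate allele higher at position 40062279, with a median of 0.416.

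ESRRA, a nuclear receptor that activates genes of mitochondrial biogenesis, had 5 downstream variants within 7 bp, from position 41921213 to 41921219 of chromosome 21. At position 41921218 the shares in 13 fetuses ranged from 0.173 to 0.889 with a median of 0.868, and they fell into 4 fetuses at 0.173 to 0.250 and 9 fetuses at 0.826 to 0.889. Replicates 6, 8, 9 and 18 were the low ones at 3 of the 5 SNPs, and replicates 8 and 18 at the other 2. The summed share was 0.813, with a dispersion of 45.3. The number of reads at this SNP was between 28 and 295 per heterozygous fetus.

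DDX17 showed the largest dispersion of the downstream class, 120, at position 214150734, where 15 fetuses had shares of 0.123 to 0.579 with a median of 0.544. Replicates 2, 3, 7 and 11 lay at 0.123 to 0.160 and the other 11 at 0.525 to 0.579, at 528 to 980 reads, and 0% of the reads of the 3 homozygous fetuses came from the other allele. At position 214150863 the same 4 fetuses were again the lowest, at 0.479 to 0.547, and the other 12 lay at 0.689 to 0.810. At the adjoining position 214150864 the range was 0.0852 to 0.570. Reads of the other allele made up 7.77% and 8.08% of the reads of homozygous fetuses at these SNPs. At positions 214150708 and 214151205 the fetuses lay together, at 0.421 to 0.514 and 0.477 to 0.540.

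Runs of SNPs each within 5 bp of the next held 122 of the 922 members in 50 runs. AI by the likelihood ratio test was found at 66.7%, 63.8% and 61.1% of such SNPs in the 3 classes and at 50%, 40.8% and 45.9% of lone SNPs. Synonymous SNPs differed likewise, at 66.6% against 40.1%, and 3' UTR SNPs at 71.8% against 45.5%. Of the run members of the noncoding-transcript class 50% were heterozygous in 15 or more fetuses against 4.79% of its lone SNPs. The run with the most members was downstream of NRAS, the small GTPase, where 7 SNPs lay within 14 bp of chromosome 1 from position 91240608. All 18 fetuses were heterozygous at each of the 7 SNPs, and the summed shares were 0.316 to 0.322. At position 91240610 single fetuses ranged from 0.138 to 0.529 with a median of 0.333 at 14 to 46 reads. In NUFIP2, an RNA-binding protein, 6 SNPs of a run of 25 bp on chromosome 11 rose in summed share from 0.534 at position 20250825 to 0.748 at position 20250843. The single coding or UTR SNP of NUFIP2 had a summed share of 0.502. SMPD4, a sphingomyelinase, had 6 SNPs within 14 bp of chromosome 17 from position 71660627, heterozygous in all 18 fetuses with summed shares of 0.612 to 0.682. TSPAN4, a tetraspanin that was named after its values were seen, had 3 SNPs within 6 bp of chromosome 21 with summed shares of 0.136 to 0.169, the alternate allele being higher in every fetus at position 48994134. In UBE2Z, a ubiquitin-conjugating enzyme, 3 SNPs within 9 bp of chromosome 11 had shares of 0.513 to 0.766. DVL2, a protein of Wnt signalling, had a single intron variant in a run of 5 SNPs, at position 26570284 of chromosome 11, where all 18 fetuses were heterozygous with shares of 0.781 to 0.906 and a median of 0.843 (mean 0.837 ± 0.0383, SD, n = 18; adjusted P = 9.31e-19). BRD3, a chromatin reader, and MAU2, a cohesin loader, had runs of 2 intron variants each with summed shares of 0.459 to 0.509 and 0.446 to 0.475, and none of these was called by the quasi-binomial test. In PAOX, an oxidase of polyamines, 3 SNPs within 9 bp of chromosome 22 had summed shares of 0.454 to 0.470, and in GNA12 a run of 3 SNPs had 0.477 to 0.505. ABI1, an actin regulator, had summed shares of 0.503 and 0.547 at the 2 downstream variants of its run. The SNPs of a run are read from the same fragments and are not separate observations.

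Members were also counted by gene lists. Of the list of thermogenesis and brown fat regulators, ESRRA, PRKACA and LETMD1 held 15 members, of which 12 had AI by the likelihood ratio test and 10 by the quasi-binomial test, where the whole table had 45.0% and 24.5%. One of the latter, at position 9711288 of chromosome 5 in PRKACA, rests on a single heterozygous fetus. The median distance of their share from 0.5 was 0.228 against 0.0339 over all tested SNPs, and 10 of the 15 lay in the 2 runs of ESRRA and PRKACA or next to them. Of the other 5, in LETMD1, 2 were called by each test. Lipid synthesis, storage and lipolysis was represented by SREBF1, SLC25A1 and PNPLA2 with 4 members, 3 and 2 of them called, and a median distance of 0.06. The list of mitochondrial metabolism held 27 members in ETFDH, IDH3A, PYCRL, TIMM10 and UQCRC1, 19 and 14 called, with a median distance of 0.042. Most were the 10 intron variants of IDH3A and the 5 intron and 9 downstream variants of ETFDH, and SNPs of a gene are not independent. The deepest members of all lay in UQCRC1 and IDH3A, where small departures pass more easily. The counts thus do not describe the pathway as a whole. Extracellular matrix and adhesion held 26 members, 17 and 11 called, all with the reference allele higher, and a median distance of 0.0411. DDX17 was the single gene of the RNA processing list, with 6 members, 4 and 3 called. Of the 34 symbols in the list of genes imprinted in mammals, CD81, a tetraspanin, was the one with a member, with shares of 0.516 to 0.562 in 5 fetuses at position 48425709 of chromosome 21 (adjusted P = 0.00767). The lists of noncoding host genes and of A-to-I RNA editing targets held no member under their listed symbols. Downstream members were, however, assigned to the RNA genes SNORA33, SNORA61, 5S_rRNA and mascRNA-menRNA, singled out after their values were seen. Their summed shares were 0.512, 0.531, 0.566 and 0.550, and the latter 2 had AI by the likelihood ratio test, but none was called by the quasi-binomial test (adjusted P = 0.863, 0.356, 0.163 and 0.0848). The share of transitions was 76.8%, 71.9% and 70.9% in the 3 classes, compared with 85.8% of synonymous and 70.6% of 3' UTR SNPs.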

How the data were processed

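RNA-Seq reads of 18 PRAT samples were aligned by the authors to Oar v3.1 with STAR, and SNPs and genotypes were called by the authors from the same reads with GATK 3.4-46. The deposited values are counts of reads of each allele per SNP and animal without normalization, and the deposited genotype calls. Over the members, at least 5 animals of any call had 10 or more reads of each allele. The authors' own comparison columns hold a test statistic, a P-value, the higher allele and the share of reference reads, and were not used. One column set is named PS910 and was taken as the fetus labelled RS910.

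Reads of animals called 0/1 were used, with 0.5 as the null share. The likelihood ratio statistic, 2 times the log likelihood ratio where the formula printed by the study has the opposite sign and no factor of 2, was compared with the chi-square distribution with 1 degree of freedom, and a call was an unadjusted P-value under 0.05. The quasi-binomial F test moderated the dispersions of all SNPs with limma 3.58.1 and was adjusted over all tested SNPs by the Benjamini-Hochberg method. Classes were compared within animals by two-sided sign-flip permutation with 100000 resamples, which can give 1e-05 at the least, adjusted over 16 comparisons. The SNPs were a fixed set in these tests, and SNPs of a gene are not independent. Python 3.11.15, numpy 2.4.6, pandas 2.3.3, scipy 1.17.1 and R 4.3.3 were used, and the scripts were tested on simulated data. Alternatives were an adjusted P-value, the quasi-binomial test, another null share, at most 50 reads per animal and at least 30 reads of each allele. Others were means against medians, removal of neighbouring SNPs or of SNPs heterozygous in 15 or more animals, and leaving out each animal. For the reference share and its distance from 0.5, a minimum depth of 50 reads was also used. RefSeq names were taken from the ARS-UI_Ramb_v3.0 assembly and no positions from it.

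SNPs were named within each class if they were among up to 6 lone SNPs with the largest departure called by both tests with the same higher allele in 5 or more heterozygous animals, up to 4 runs with most members, the 3 deepest SNPs, the 3 genes with most SNPs, the 2 largest dispersions, or called by both tests in a listed gene. Members and lists were chosen with earlier results of these data known.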

Additional observations from a re-analysis of the deposited data

Results flagged for a closer look

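Reads of both alleles were present at 4 members where no fetus was called heterozygous for the reference and alternate alleles, so no allele share was computed for them. The alternate allele made up 82.0% of the reads of the downstream variant of ABR at position 21479634 of chromosome 11, and 95.4% of those of NDUFS7, a subunit of respiratory complex I, at position 41207755 of chromosome 5. It made up 76.9% at the noncoding-transcript intron variant of BRMS1L at position 43692806 of chromosome 21. All 18 fetuses were called homozygous for the alternate allele at these SNPs, and 9, 18 and 5 of them had 10 or more reads of each allele. In PSMD8, at position 47381372 of chromosome 14, 13.7% of reads were alternate, and 16 calls named another allele. The allele reads of homozygous fetuses were not used for the shares either, and 28 of 877 members (3.19%) had 5% or more of the reads of these fetuses from the other allele, compared with 0.666% of synonymous SNPs. The highest was 40.7%, at position 103922791 of chromosome 1 in SLC50A1. Synonymous SNPs also had another SNP within 5 bp less often, at 4.74% against 13.2% of the members. The share of such SNPs among 3' UTR SNPs and in the whole table is not given, so it cannot be called particular to the members. The cause was not tested.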

How the results depend on the processing

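Of the tests over fetuses under alternatives other than leaving out a fetus, 46 of 68 kept their direction and side of the threshold, 21 of 27 counts of AI calls stayed within 1.5 times, and the cause of the changes was not tested. With 30 reads of each allele 92 noncoding-transcript intron and 114 downstream variants had AI, of 186 and 212 tested (49.5% and 53.8%). The share of all SNPs under this filter is not given, so these counts cannot be set against a background. The adjusted P-value of the quasi-binomial test and the removal of the 3 genes with most SNPs of each class were chosen after seeing the data. The former gave 18, 94 and 105 calls, and the planned unadjusted P-value of that test 24, 136 and 147 (34.4% of the table). Without the 3 genes, 20 of 43 intron variants had AI, the reference share differences from synonymous SNPs were 0.00132, 0.00428 and -0.00581 for the 3 classes (permutation test, adjusted P = 0.789, 0.0266 and 0.0201), the heterozygous difference of downstream variants was 0.402 and the log2 depth difference of noncoding-transcript intron variants -0.057 (permutation test, adjusted P = 0.00216). No share of all SNPs is given for this removal either. Without SNPs within 5 bp of another, the reference share of downstream variants differed by 0.00184 from synonymous and 0.00158 from 3' UTR SNPs, the imbalance of the 3 classes by -0.00347, 0.00046 and 0.00125, the heterozygous percentage by -0.710 (noncoding-transcript) and -0.483 (downstream minus 3' UTR), and the noncoding-transcript log2 depth by 0.038. Without SNPs heterozygous in 15 or more, imbalance differed by -0.00223 (intron) and -0.00179 (noncoding-transcript), and the heterozygous percentage of the latter by -0.637. With at least 50 reads the intron reference share differed by 0.00197. With means over SNPs the noncoding-transcript share differed by -0.000421, and log2 depth by -0.82 (noncoding-transcript), -0.62 (downstream) and -0.60 (downstream minus 3' UTR). With medians, the imbalance of downstream minus 3' UTR SNPs was -0.000984 (permutation test, adjusted P = 0.151). Leaving out each fetus gave -0.00164 to 0.00194 for the intron reference share, where the sign turned without replicates 2, 3, 5, 6, 14 and 18, and -0.334 to 0.522 for the heterozygous percentage of downstream minus 3' UTR SNPs, where it turned without replicates 1, 4, 5, 7, 8 and 18. The log2 depth of noncoding-transcript intron variants ranged from -0.041 to -0.025 and passed without replicate 12 (-0.041, permutation test, adjusted P = 0.00828).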
